A study of Mus musculus with 3 samples.

Results

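The progesterone pathway was described through 6 genes, *Star*, *Cyp11a1*, *Hsd3b1*, *Fdx1*, *Fdxr* and *Scarb1*, of the 24958 genes in a single-cell RNA sequencing (scRNA-seq) table of mouse ovary. They were chosen by name as the genes that carry cholesterol into the mitochondrion and turn it into progesterone, with the electron carriers of that step. The labels name 3 libraries of ovary, hCG0h, hCG1h and hCG6h, taken 0, 1 and 6 h after human chorionic gonadotropin (hCG), which acts on the LH receptor. Each time point had 1 library. The study describes Kunming mice that were 21 days old and had been injected 48 h earlier with PMSG (pregnant mare serum gonadotropin), a hormone with FSH activity, and this description matches the library at 0 h. Whether the mice of the other two libraries also received PMSG, and how many animals went into a library, is not given in the sources used here.

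The table holds 31776 cells whose barcodes end in 1, 2 or 3, with 10384, 9917 and 11475 cells. No source used here says which ending belongs to which library, so the endings are called barcode sets 1, 2 and 3 and carry no time point. Between 27 and 46 barcodes were shared by each pair of sets. The median depth was 6093, 6352 and 6524 UMIs per cell in sets 1, 2 and 3. No set has a replicate, so differences are given as values without a significance test. A level is the mean, over the cells of a group, of a gene's UMIs per 10000 in each cell, and the range in brackets after it is the exact 95% Poisson interval of the summed UMIs, which covers counting error only. The levels were compared within a gene and between groups of cells, not between genes.

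Progesterone is made from cholesterol. SCARB1 takes cholesterol up from high-density lipoprotein, and STAR moves it to the inner mitochondrial membrane. There CYP11A1 cleaves the side chain to give pregnenolone, with electrons that FDXR takes from NADPH and passes on through FDX1. HSD3B1 then converts pregnenolone to progesterone. In the ovary, theca and interstitial cells use these steps on the way to androgens, while the granulosa cells (GCs) of a growing follicle become strong progesterone producers once the LH surge starts their luteinization.

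The cells were grouped by gates on marker genes that include none of the 6 genes. The theca gate took cells with a deposited *Cyp17a1* value of at least 2.5, *Cyp17a1* being the enzyme that makes androgens. The interstitial gate took cells with lower but detected *Cyp17a1* and a high sum of *Insl3*, *Fabp3*, *Mgarp*, *Prlr*, *Aldh1a1*, *Hao2* and *Ephx1*. The luteal-marker gate asked for *Sfrp4* and *Ptgfr*, and the granulosa gate for *Inha* and *Serpine2*. Gates of stroma, endothelium and myeloid cells served for comparison. In sets 1, 2 and 3, the theca gate held 742, 407 and 217 cells, the interstitial gate 432, 60 and 160, the luteal-marker gate 203, 127 and 76, and the granulosa gate 3816, 3903 and 4217. No gate took 13.6% of all cells, and 2.10% of cells met more than 1 gate.

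The gates differed in how well markers that were not used to set them fitted the names. *Inhba*, a subunit of activin and inhibin made by GCs, stood at 34.4, 39.4 and 2.46 in the granulosa gate of sets 1, 2 and 3. The 13 granulosa markers together stood at 168, 171 and 65.8. This sum includes the genes that set the gate, *Inha* at 66.8, 66.2 and 38.0 and *Serpine2* at 22.3, 22.8 and 14.2. Set 3 GCs thus carried less of their usual markers. The stromal, endothelial and myeloid marker sums of the granulosa gate, which the gate rules themselves kept low, were 1.05 to 1.10, 0.226 to 0.339 and 0.125 to 0.155, and the smooth-muscle sum was 1.14, 1.78 and 1.28 in sets 1, 2 and 3. The theca gate also carried markers of other cells, and its sum of granulosa markers was 20.95, 32.8 and 19.7 in sets 1, 2 and 3. *Inha* alone made 13.5, 18.4 and 17.7 of it. *Inha* stood at 12.5, 20.3 and 11.5 in the interstitial gate and 4.74, 15.8 and 13.6 in the luteal-marker gate. The theca sum of stroma was 22.5, 20.4 and 13.5, and that of smooth muscle 1.08, 1.42 and 2.42. In the luteal-marker gate the granulosa sum was 14.5, 34.4 and 20.01. In the interstitial gate the granulosa sum was 20.9, 33.3 and 13.9 and the stroma sum 14.002, 6.65 and 15.2. Their part in the theca, interstitial and luteal-marker differences between sets was not tested. In clusters built without the 6 genes, 145 of the 160 interstitial cells of set 3 lay in the cluster that held most theca cells, as did 40 of 60 in set 2 and 175 of 432 in set 1. Theca and interstitial values of set 3 are therefore values of 1 cluster split by *Cyp17a1*. The luteal-marker gate was the smallest of the steroidogenic gates in sets 1 and 3 and its cells were spread over more clusters in set 3, where 36 of 76 lay in its main cluster and 25 lay in the theca cluster, against 194 of 203 and 105 of 127 in the main clusters of sets 1 and 2. Its own markers were not confined to it. *Sfrp4* stood at 19.1, 22.8 and 34.0 there in sets 1, 2 and 3, at 2.64, 5.09 and 14.1 in the theca gate and at 0.264, 1.26 and 8.08 in the granulosa gate. *Ptgfr* stood at 6.60, 6.28 and 3.72 in the luteal-marker gate and at 0.103, 1.82 and 0.127 in the granulosa gate. Whether the luteal-marker gate held the same kind of cells in each set was not tested.

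The upstream windows of 3 of the genes are shown because their transcripts followed 3 different patterns described below: *Fdx1* was highest in set 2, *Hsd3b1* was lowest in set 3, and *Cyp11a1* was high in theca cells of every set. Each window is the 250 bases before a RefSeq start in GRCm38.p6, read on the strand of the gene. *Cyp11a1* has 2 such starts in the table and the window of the downstream one is given, which lies within the span of the GENCODE gene given below. RefSeq windows of 4 of the 6 genes were matched. Capitals mark the motifs GATAA (bound by GATA factors) and TTGCNNAA (bound by C/EBP factors), searched on both strands together with AAGGTCA (SF-1 and LRH-1), TGACTCA (AP-1), TGACG (part of a CREB site) and GGGCGG (a GC box). TGACTCA reads TGAGTCA on the other strand, and none of the matched motifs overlapped within these windows.
Cyp11a1, chr9:58014702-58014951, + strand: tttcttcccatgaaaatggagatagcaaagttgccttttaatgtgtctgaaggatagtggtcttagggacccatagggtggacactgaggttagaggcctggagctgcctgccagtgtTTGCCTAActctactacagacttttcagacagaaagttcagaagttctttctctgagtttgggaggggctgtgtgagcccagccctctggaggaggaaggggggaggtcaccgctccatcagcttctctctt
Fdx1, chr9:51963603-51963852, - strand: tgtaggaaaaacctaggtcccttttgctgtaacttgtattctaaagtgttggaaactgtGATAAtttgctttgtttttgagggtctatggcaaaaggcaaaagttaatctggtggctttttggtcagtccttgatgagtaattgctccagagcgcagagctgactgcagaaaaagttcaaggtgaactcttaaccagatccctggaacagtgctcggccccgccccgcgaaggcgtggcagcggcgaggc
Hsd3b1, chr3:98859795-98860044, - strand: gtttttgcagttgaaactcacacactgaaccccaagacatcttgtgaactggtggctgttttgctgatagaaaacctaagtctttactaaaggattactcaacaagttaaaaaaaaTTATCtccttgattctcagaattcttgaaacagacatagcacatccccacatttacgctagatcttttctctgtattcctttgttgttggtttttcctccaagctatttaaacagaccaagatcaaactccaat

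The C/EBP letters of the *Cyp11a1* window begin 132 bases before the start, and 9.56% of 32851 RefSeq windows of this length hold such a match. The GATA letters of *Fdx1* and *Hsd3b1*, in the latter read as TTATC on the opposite strand, begin 191 and 134 bases before the start, and 22.6% of windows hold one. The *Fdx1* window also holds a GC box, found in 32.7% of windows. AAGGTCA and TGACTCA, found in 4.08% and 4.46% of windows, are absent from the 3 windows. Only these exact letters were searched, so near matches, such as gaggtca in the *Cyp11a1* window, were not counted. The other *Cyp11a1* window, chr9:57997774-57998023, lies before the span of the GENCODE gene and holds TGACG once, beginning 50 bases before its start, and 17.8% of windows hold this motif. The *Fdxr* window on chromosome 11 holds GATAA once and GGGCGG 3 times. These are descriptions of letters and say nothing of binding.

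In the GENCODE annotation of GRCm38, *Star* lies on chromosome 8 (25806555 to 25815982), *Cyp11a1* and *Fdx1* on chromosome 9 (58006411 to 58027023 and 51943306 to 51963556), *Hsd3b1* on chromosome 3 (98852194 to 98859794), *Fdxr* on chromosome 11 (115268024 to 115277050) and *Scarb1* on chromosome 5 (125277087 to 125341094).

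Over all cells, the 6 genes did not move together between the barcode sets. *Star* stood at 0.264 in set 1, 3.97 in set 2 and 5.68 in set 3. *Fdx1* stood at 5.02, 27.5 and 8.57, highest in set 2. *Hsd3b1* stood at 19.5, 13.2 and 6.33, in descending order. *Cyp11a1* stood at 12.2, 6.49 and 9.64, *Fdxr* at 1.10, 0.488 and 1.34, and *Scarb1* at 0.901, 2.40 and 1.44. Levels over all cells mix the change within a cell type with the number of its cells, and the theca gate held 7.15%, 4.10% and 1.89% of the cells of sets 1, 2 and 3. The gates were therefore taken one by one.

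**Figure D1:**
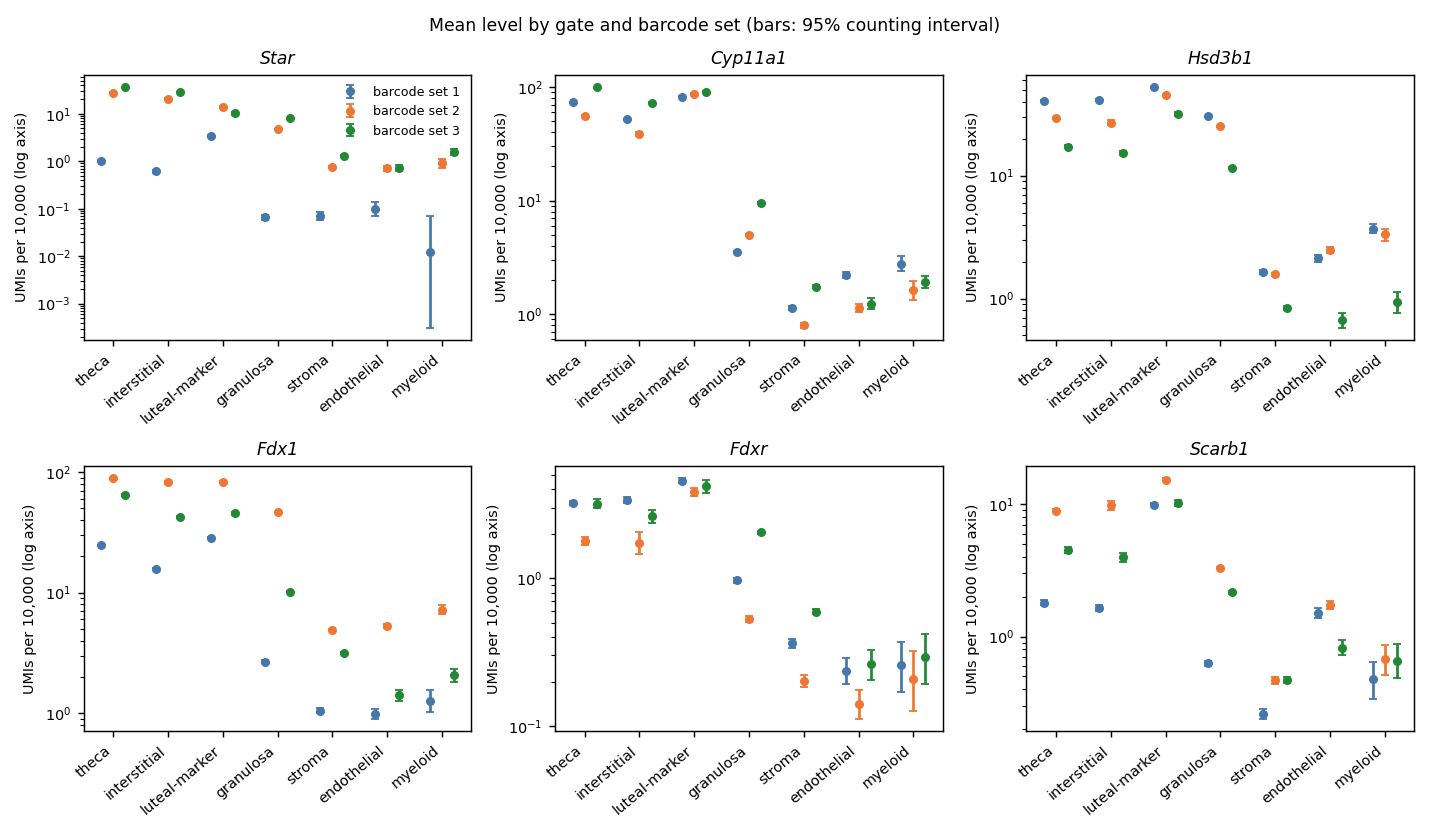
Mean level of each gene (UMIs per 10000, log axis) in the 7 gates, with points for barcode sets 1 (blue), 2 (orange) and 3 (green) and bars for the 95% counting interval. *Star* in the granulosa gate goes from 0.0660 in set 1 to 4.81 in set 2 and 8.12 in set 3, while *Hsd3b1* is lowest in set 3 in all 7 gates.

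*Scarb1*, the receptor that brings in cholesterol, was highest in the luteal-marker gate of every set, at 9.96 (9.70 to 10.2), 15.4 (14.9 to 15.8) and 10.2 (9.64 to 10.8) in sets 1, 2 and 3. The ratio of set 3 to set 1 was 1.03 there (0.962 to 1.10), within counting error of 1. In the theca gate it stood at 1.81, 8.94 and 4.52, and in the interstitial gate at 1.64, 9.85 and 3.98. The granulosa gate had 0.628, 3.30 and 2.16. In these last 3 gates set 2 was highest, at 4.95 times the set 1 level in theca cells (4.69 to 5.22) and 5.26 times in GCs (5.02 to 5.51). The set 1 GC level lay under that of endothelial cells and inside the interval of myeloid cells, so the last ratio is one of measured levels and had no value with the endothelial and myeloid level taken off. With that level taken off, the theca ratio was 9.53. Endothelial cells are known to carry this receptor, so for *Scarb1* that level may hold more than RNA from other cells. The 9.53 and the missing GC ratio depend on it. The luteal-marker gate of set 2 stood at 1.54 times that of set 1.

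*Scarb1* also lay outside the steroidogenic gates. Endothelial cells, in which this receptor is known, had 1.51 (1.39 to 1.64), 1.74 (1.63 to 1.85) and 0.827 (0.725 to 0.940), against 0.474 (0.339 to 0.646), 0.674 and 0.659 in myeloid cells. In set 1 the endothelial level was thus above that of GCs. After thinning every cell to 3000 UMIs, 35.9% of the endothelial and 15.8% of the granulosa cells of set 1 had a *Scarb1* UMI, and 35.7% and 42.9% in set 2. Without thinning, these shares were 50.5%, 31.2%, 47.9% and 61.2%.

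*Star*, which delivers cholesterol to the inner membrane, had the widest range of levels. In set 1 it was lowest in GCs among the steroidogenic gates, at 0.0660 (0.0576 to 0.0751), and low in theca cells, at 1.03 (0.968 to 1.09). In set 2 the theca gate had 27.8 (27.4 to 28.3) and the granulosa gate 4.81 (4.72 to 4.89). In set 3 they had 36.6 (35.9 to 37.4) and 8.12 (8.02 to 8.22). The ratio of set 2 to set 1 was 27.1 in theca cells (25.6 to 28.8) and 72.9 in GCs (63.9 to 83.5), the latter over a set 1 level no higher than background.

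The set 1 level of *Star* in GCs was no higher than that in cells that should lack it. Endothelial cells of set 1 had 0.101 (0.0707 to 0.140) and stroma 0.0705 (0.0589 to 0.0838), while the 100 myeloid cells of set 1 gave 1 *Star* UMI, a level of 0.0123 (0.000312 to 0.0688). After thinning, 1.59% of set 1 GCs had a *Star* UMI (57 of 3595 cells, exact binomial interval 1.20% to 2.05%), against 1.72% of endothelial cells (0.694% to 3.51%). Unthinned shares were 3.59% and 4.32% at median depths of 6060 and 5147 UMIs. *Star* in GCs of set 1 was therefore read as background. In set 2, 35.9% of GCs and 12.5% of endothelial cells had a *Star* UMI, and in set 3, 48.3% and 13.0%. The unthinned shares of GCs were 49.2% and 58.7%. With the endothelial and myeloid level of the same set taken off, the ratio of set 2 to set 1 in GCs became 429, and with mean log values 44.6, so its size is poorly defined while its direction held.

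The luteal-marker gate followed another order for *Star*. In set 1 it was the highest gate, at 3.38 (3.22 to 3.54), which is 3.29 times the theca level (3.06 to 3.54). In set 2 it stood at 13.8 (13.3 to 14.3), 0.496 times the theca level, and in set 3 at 10.1 (9.49 to 10.8), 0.277 times the theca level. The interstitial gate lay below the theca gate in all 3 sets, at 0.612, 20.7 and 28.5. Theca, interstitial and granulosa cells thus kept this descending order in every set. The luteal-marker gate lay above the theca gate in set 1 and between the interstitial and granulosa gates in sets 2 and 3. The part of a change in which cells met the luteal-marker gate was not tested.

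In GCs, *Star* was carried by a part of the cells. The median GC had no *Star* UMI in set 2 and 1.52 UMIs per 10000 in set 3, while the 90th percentile was 16.1 and 26.4. The 10% of GCs with the highest values held 63.5% of the summed level in set 2 and 48.2% in set 3. In the theca gate the top 10% held 22.1% and 21.9%, and the median theca cell had 27.7 and 33.8. Theca cells were thus far more even in *Star* than GCs.

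**Figure D2:**
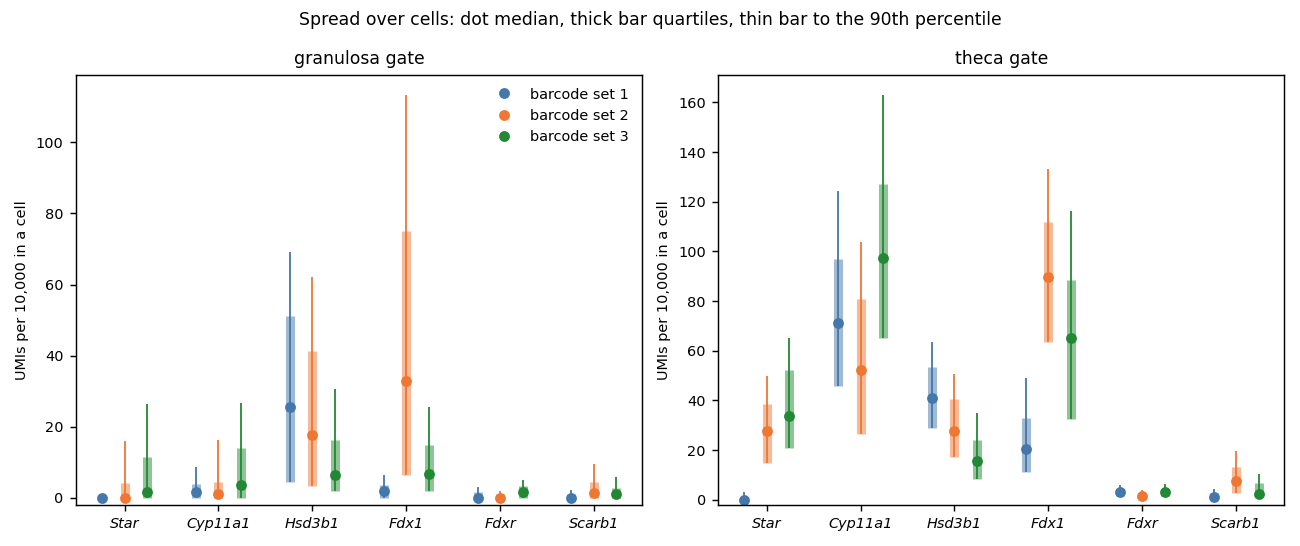
Values of single cells (UMIs per 10000) in the granulosa gate (left) and the theca gate (right) for the 6 genes and 3 barcode sets: the dot is the median cell, the thick bar runs from the first to the third quartile and the thin bar reaches the 90th percentile. *Star* in GCs has a median of 0 in sets 1 and 2 but a 90th percentile of 16.1 in set 2, whereas the theca medians of sets 2 and 3 are 27.7 and 33.8.

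*Cyp11a1*, the side-chain cleavage enzyme, marked the theca, interstitial and luteal-marker gates in every set. The theca gate stood at 73.6 (73.1 to 74.1), 55.9 (55.2 to 56.5) and 100 (98.7 to 101) in sets 1, 2 and 3. The interstitial gate stood lower in each set, at 51.9, 38.4 and 73.2, which is 0.705, 0.688 and 0.732 times the theca level. The luteal-marker gate varied least between the sets, at 82.1 (81.3 to 82.9), 87.6 (86.4 to 88.7) and 90.2 (88.3 to 92.2). GCs stood at 3.49 (3.43 to 3.56), 4.94 (4.86 to 5.03) and 9.56 (9.45 to 9.67).

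The gap between theca cells and GCs in *Cyp11a1* was 21.1-fold in set 1, 11.3-fold in set 2 and 10.5-fold in set 3. With mean log values it was 38.5-fold, 22.9-fold and 21.5-fold, and with the endothelial and myeloid level of the same set taken off it was 71.0-fold, 15.3-fold and 12.3-fold. The set 1 level of GCs was not far above the 2.20 of endothelial and 2.78 of myeloid cells of that set. In set 3 the corresponding values were 1.23 and 1.93, well under the 9.56 of GCs. After thinning, 43.3%, 40.1% and 59.4% of GCs of sets 1, 2 and 3 had a *Cyp11a1* UMI, against 25.8%, 17.5% and 21.8% of endothelial cells. The unthinned shares were 62.1%, 57.7% and 72.4% in GCs and 45.2%, 29.8% and 31.6% in endothelial cells. From set 1 to set 2, GCs were 1.41 times as high (1.38 to 1.45) while theca cells were 0.759 times as high (0.749 to 0.769). On the log2 scale these ratios are 0.50 and -0.40, beside medians of -0.48 and -0.46 over all genes compared in the 2 gates, so theca cells lay at the general shift and GCs above it. With the endothelial and myeloid level taken off, the GC ratio became 3.57.

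*Fdx1*, the small iron-sulfur protein that hands electrons to CYP11A1, was highest in set 2 in all 7 gates. In GCs it stood at 2.67 (2.62 to 2.73), 46.3 (46.0 to 46.5) and 10.2 (10.1 to 10.3) in sets 1, 2 and 3. In the theca gate it stood at 24.6 (24.3 to 24.9), 88.5 (87.7 to 89.4) and 64.5 (63.5 to 65.5). The theca gate of set 2 also had the highest granulosa marker sum of the 3 sets, 32.8 against 20.95 and 19.7, as did the interstitial gate of set 2, at 33.3. The set 2 to set 1 ratio of *Fdx1* was 17.3 in GCs (16.9 to 17.7), 3.60 in theca cells, 5.20 in interstitial cells and 2.88 in luteal-marker cells. From set 2 to set 3, the GC level was 0.220 times as high and the theca level 0.729 times.

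The high *Fdx1* of set 2 reached cells that make no steroid. Stroma had 1.05, 4.94 and 3.16 in sets 1, 2 and 3, endothelial cells 0.986, 5.29 and 1.41, and myeloid cells 1.27, 7.22 and 2.06. The part of free RNA from other cells in these values was not tested. After thinning, 89.5% of GCs and 55.6% of endothelial cells of set 2 had an *Fdx1* UMI, against 46.5% and 19.2% in set 1 (unthinned 96.7%, 73.5%, 68.2% and 37.3%). GCs of set 2 also varied widely, with quartiles of 6.52, 32.9 and 75.001 and a 90th percentile of 113.

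*Fdxr*, the reductase that feeds FDX1, had the opposite order between sets 1 and 2. In GCs it stood at 0.969 (0.934 to 1.00), 0.533 (0.509 to 0.559) and 2.06 (2.01 to 2.11) in sets 1, 2 and 3. In theca cells it stood at 3.23 (3.12 to 3.34), 1.78 (1.67 to 1.90) and 3.19 (2.97 to 3.42). Set 2 was lowest in both gates, at 0.550 times set 1 in GCs and 0.552 times in theca cells. Sets 1 and 3 of the theca gate could not be told apart, with a ratio of 0.988 (0.913 to 1.07), whereas the GCs of set 3 had 2.12 times the set 1 level. The luteal-marker gate was again the highest, at 4.58, 3.85 and 4.19. In set 2 most detected genes shared a downward shift, since the median log2 ratio of set 2 to set 1 was -0.48 over the 13119 genes compared in GCs and -0.46 over 10437 genes in theca cells. The *Fdxr* ratios, -0.86 and -0.86 on the log2 scale, lie below those medians by less than a log2 unit.

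*Hsd3b1*, which makes progesterone from pregnenolone, was the member with the smallest gap between GCs and theca cells in sets 1 and 2. In set 3 its theca to granulosa ratio and that of *Fdxr* were close, at 1.48 and 1.55, and their order turned with summed UMIs, at 1.53 and 1.51, and with mean log values, at 2.23 and 1.85. The theca gate stood at 40.9 (40.5 to 41.3), 29.4 (28.9 to 29.9) and 17.2 (16.7 to 17.7) in sets 1, 2 and 3. GCs stood at 30.5 (30.3 to 30.7), 25.2 (25.04 to 25.4) and 11.6 (11.5 to 11.7). The luteal-marker gate stood at 52.4, 45.0 and 32.0. Set 3 over set 1 was 0.420 in theca cells (0.407 to 0.434), 0.380 in GCs (0.375 to 0.385), 0.370 in interstitial cells and 0.610 in luteal-marker cells. On the log2 scale the theca and GC ratios were -1.25 and -1.40, beside medians of -0.18 and -0.13 over all genes compared. Those of set 2 to set 1 were -0.47 and -0.27, beside medians of -0.46 and -0.48. The step from set 1 to set 2 thus lay at the general shift in theca cells and above it in GCs. The descending order of sets 1, 2 and 3 held in the 4 steroidogenic gates. It also held in stroma, at 1.64, 1.57 and 0.833, and in myeloid cells, at 3.71, 3.32 and 0.938. Endothelial cells stood at 2.12, 2.47 and 0.666, again lowest in set 3. The part of free RNA in the values of these last gates was not tested. The theca to granulosa ratio was 1.34, 1.17 and 1.48.

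After thinning, 84.6%, 80.5% and 73.0% of GCs had an *Hsd3b1* UMI, and 31.9%, 27.5% and 14.6% of endothelial cells (unthinned 92.3%, 90.3% and 84.3%, and 55.4%, 46.6% and 21.1%). The near-identical *Hsd3b* copies were almost absent, with 39, 2 and 20 UMIs of *Hsd3b6* in sets 1, 2 and 3, no more than 6 of *Hsd3b2* and no more than 4 of *Hsd3b3*. Reads that fit several copies equally well are usually dropped in counting, so the part of the copies in the *Hsd3b1* values is uncertain.

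Seen by where the transcripts lay, GCs held a larger part of each of the 6 genes in sets 2 and 3 than in set 1. The granulosa gate held 5.17% of the *Star* UMIs of set 1, 35.8% in set 2 and 46.2% in set 3. The luteal-marker gate, with 1.95% of the cells of set 1, held 41.4% of the *Star* UMIs of that set, and 9.26% and 1.64% in sets 2 and 3. Its cells were deep, with a median of 16524 UMIs in set 1, and held 5.54%, 3.24% and 1.03% of all UMIs of sets 1, 2 and 3. For *Cyp11a1* the granulosa part was 6.80%, 18.5% and 29.7%, and the theca part 43.5%, 38.7% and 25.6%. For *Fdx1* the granulosa part was 12.1%, 58.9% and 39.2%, and for *Hsd3b1* 44.2%, 66.9% and 65.5%. The granulosa gate held 35.6%, 42.1% and 39.7% of all UMIs of the sets. These parts depend on how many cells of each kind were captured.

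**Figure D3:**
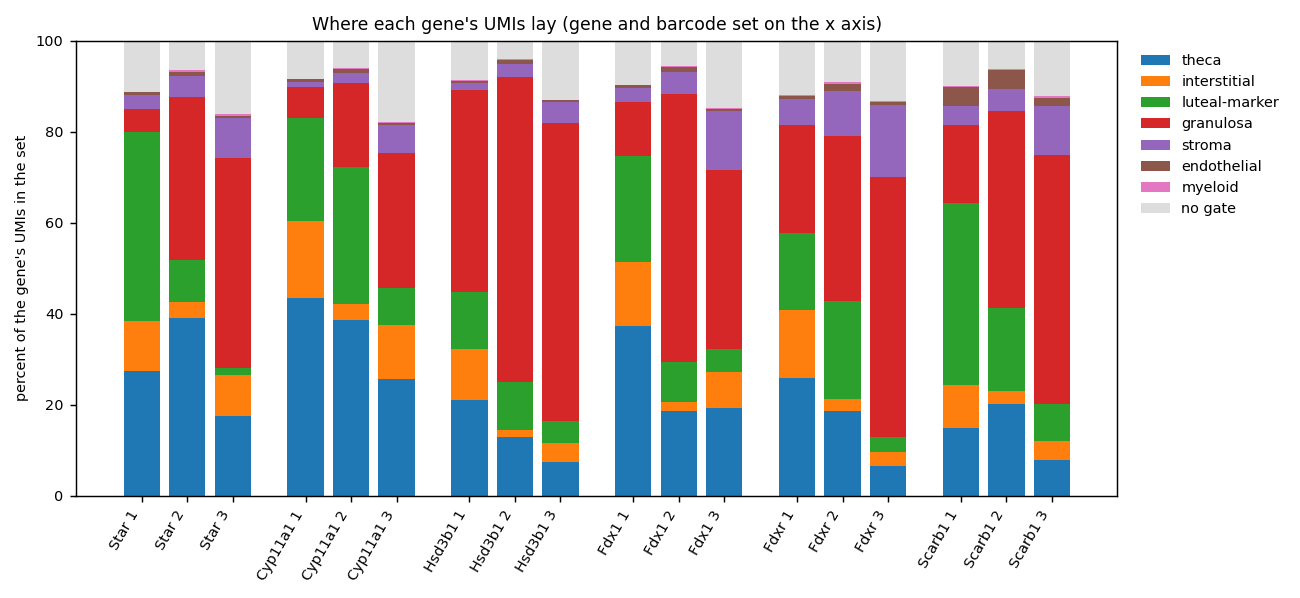
Percent of the UMIs of each gene that lay in each gate (colours), for barcode sets 1, 2 and 3 of each gene from left to right, with grey for cells of no gate. The granulosa part (red) of *Star* is 5.17% in set 1, 35.8% in set 2 and 46.2% in set 3.

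Of the 6 genes, 5 were at least 2-fold higher in the theca than in the granulosa gate in set 1, 4 in set 2 and 4 in set 3. Among all genes with at least 50 summed UMIs in both gates together, 10%, 8.88% and 7.63% were 2-fold or more higher in the theca gate. *Star*, *Cyp11a1* and *Scarb1* passed in all 3 sets, *Star* in set 1 over a GC level read as background, and *Hsd3b1* in none. *Fdx1* lay just under the threshold in set 2 at 1.91 and passed it under 4 of 9 alternatives, at 2.02 to 3.42, and *Fdxr* under it in set 3 at 1.55. *Scarb1* in set 3, at 2.09, was close to the threshold and fell under it with summed UMIs, at 1.90, and with a *Cyp17a1* threshold of 2.0, at 1.97. With mean log values, the *Hsd3b1* ratio passed 2-fold in sets 1 and 3, at 2.27 and 2.23.

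The interstitial gate was at least 2-fold higher than the granulosa gate for 5, 4 and 3 of the 6 genes in sets 1, 2 and 3, where 9.52%, 9.98% and 7.41% of all genes were. *Star* was 4.31 and 3.52 times as high in sets 2 and 3. In set 1 it stood at 0.612 in interstitial cells against 0.0660 in GCs, which was read as background, so the ratio of 9.27 is one of measured levels, and it became 59.7 with the endothelial and myeloid level taken off. *Cyp11a1* was 14.9, 7.77 and 7.66 times as high in sets 1, 2 and 3, and in set 1 it was 49.3 times as high with that level taken off. With mean log values these ratios were 25.1, 12.1 and 15.05. The median log2 ratio of the 6 genes was 2.47 between theca cells and GCs in set 1, 1.59 in set 2 and 1.62 in set 3, against -0.26, -0.27 and -0.35 over all genes compared. Between interstitial cells and GCs it was 2.18, 1.64 and 1.35, against -0.18, -0.20 and -0.27. *Star* lay above the set 1 medians, so a GC level of *Star* below the measured one would leave them as they are. *Scarb1* lay below them in set 1, at 1.53 for theca and 1.38 for interstitial cells. Its set 1 GC level was under that of endothelial cells, and a GC level of *Scarb1* below the measured one could raise these medians.

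Between barcode sets in the granulosa gate, 3 of the 6 genes were at least 2-fold higher in set 2 than in set 1, *Star*, *Fdx1* and *Scarb1*, and none was 2-fold lower. Of all genes, 6.99% were 2-fold or more higher and 22.3% lower. From set 2 to set 3, *Fdxr* was 3.86 times as high, and *Hsd3b1* and *Fdx1* were 0.459 and 0.220 times as high, where 21.6% of all genes were higher and 9.36% lower. From set 1 to set 3, 5 were higher and *Hsd3b1* was lower, where 9.75% of all genes were higher and 14.1% lower. With the endothelial and myeloid level taken off, the count of members apart between sets 1 and 2 was 5 instead of 3. These were *Star*, *Fdx1*, *Cyp11a1*, *Fdxr* and *Scarb1*, of which *Scarb1* had no ratio, since its set 1 level then came to 0, and *Fdxr* was at the threshold, at 0.497. The level taken off includes endothelial cells, in which the receptor *Scarb1* is known.

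In the theca gate 3 genes, *Star*, *Fdx1* and *Scarb1*, were at least 2-fold higher in set 2 than in set 1 and again in set 3 than in set 1, and *Hsd3b1* was lower in set 3. Of all genes, 6.57% were higher and 21.9% lower in set 2 than in set 1, and 8.37% and 16.8% in set 3 than in set 1. No member was 2-fold apart between sets 2 and 3, where 19.3% of all genes were higher and 10.6% lower. *Scarb1*, at 0.505 times the set 2 level, lay at the threshold and passed it under 6 of 9 alternatives. The 3 comparisons of a gate share their sets, so they are not separate evidence.

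Cells with UMIs of 3 of the genes, *Star*, *Cyp11a1* and *Hsd3b1*, were common in the theca gate of sets 2 and 3, whereas all 6 genes were seen together in fewer cells. After thinning to 3000 UMIs, 20.8% of theca cells of set 1 (17.9% to 23.97%), 89.0% of set 2 (85.4% to 91.9%) and 90.05% of set 3 (85.2% to 93.7%) had UMIs of these 3 genes together. In GCs the shares were 0.668% (24 of 3595 cells), 18.8% (709 of 3762) and 32.1% (1287 of 4004). In luteal-marker cells they were 44.2%, 77.0% and 70.3%, and in interstitial cells 9.05%, 69.6% and 84.2%. All 6 genes were seen together in 6.34%, 31.5% and 33.6% of theca cells and in 0.111%, 2.21% and 7.32% of GCs. In theca cells the shares with 3 genes lay close to those of *Star* alone, at 21.4%, 94.0% and 98.1%. *Fdxr* was seen in 58.9%, 39.9% and 58.3% of theca cells after thinning and in 92.3%, 73.0% and 88.0% without it. The shares with all 6 genes therefore depend on depth.

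**Figure D4:**
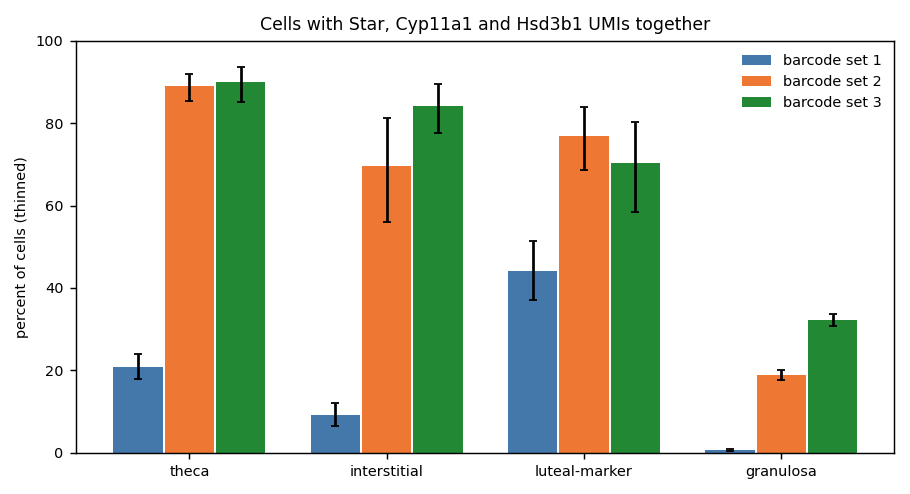
Percent of cells, each thinned to 3000 UMIs, with at least 1 UMI of *Star*, *Cyp11a1* and *Hsd3b1* together, by gate and barcode set, with exact 95% binomial bars. Theca cells go from 20.8% in set 1 to 89.0% and 90.05% in sets 2 and 3, and GCs from 0.668% to 18.8% and 32.1%.

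Within the granulosa gate, *Star* came with *Cyp11a1* in set 3. Of the 1933 thinned GCs with a *Star* UMI, 82.9% also had a *Cyp11a1* UMI, against 37.5% of the 2071 without one. In set 2 these shares were 54.0% of 1350 and 32.3% of 2412. For *Fdx1* they were 97.1% and 85.3% in set 2 and 90.8% and 55.1% in set 3. For *Hsd3b1* they were 91.2% and 74.5% in set 2 and 79.5% and 66.9% in set 3.

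GCs with *Lhcgr*, the LH receptor, at a deposited value of at least 1.0 had more of the pathway than GCs without it. In set 1, 757 such GCs had *Cyp11a1* at 8.10 and *Hsd3b1* at 51.8, against 2.21 and 24.2 in the 2709 GCs with no *Lhcgr* UMI. In set 2, they had *Star* at 10.1 (9.82 to 10.4) against 3.64 (3.56 to 3.73) and *Fdx1* at 91.6 against 35.3. In set 3, where only 272 GCs passed, they had *Star* at 11.5 (11.01 to 12.02) against 7.59 (7.48 to 7.70) and *Cyp11a1* at 22.1 against 8.19. GCs with a summed level of at least 5 over 6 mitosis genes had less *Star*, at 1.56 against 5.31 in set 2 and 3.45 against 9.42 in set 3. In set 3, the 131 GCs with a *Ptx3* value of at least 2.0, a gene of the expanding cumulus, had *Star* at 1.73 (1.502 to 1.98) and *Cyp11a1* at 2.88 (2.59 to 3.19), against 8.32 and 9.78 in the other GCs.

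The clusters of GCs, which were built without the 6 genes, spread over a similar range. In set 2, a cluster of 1149 cells with *Lhcgr* at 2.14 and *Inhba* at 67.0 in its gated GCs had *Star* at 12.4, *Fdx1* at 97.4 and *Hsd3b1* at 48.2. Another cluster of 505 cells with as much *Inhba*, 68.0, but *Lhcgr* at 0.454 had *Star* at 1.90 and *Fdx1* at 54.6. A cluster of 303 cells with *Kctd14* at 5.29 and *Amh* at 1.51, genes of small follicles, had *Star* at 0.505, *Fdx1* at 3.05 and *Hsd3b1* at 3.26. In set 3, 2 clusters of 1115 and 896 cells had *Star* at 20.04 and 12.1 and *Cyp11a1* at 19.0 and 11.8, while a cluster of 881 cells with *Kctd14* at 3.55 had 0.308 and 0.682. In set 1, a cluster of 1105 cells with *Lhcgr* at 3.15 had *Hsd3b1* at 55.1 and *Star* at only 0.0365. High *Hsd3b1* was thus found in GCs at the background level of *Star*.

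The edge of the theca gate was gradual. In sets 1, 2 and 3, the 120, 64 and 59 cells just inside the threshold, with *Cyp17a1* between 2.5 and 3.0, had *Cyp11a1* at 51.9, 28.8 and 73.8. The 138, 82 and 76 cells just outside, between 2.0 and 2.5, had 53.1, 21.6 and 67.9.

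The other genes of the pathway were taken from a list of 54 genes for cholesterol handling, steroid enzymes and their regulators. In GCs, 53 of them had enough UMIs, and 9 (17%) were at least 2-fold higher and 9 (17%) lower in set 2 than in set 1, where 6.99% and 22.3% of all genes were. From set 1 to set 3, 15 (28.3%) were higher and 12 (22.6%) lower, against 9.75% and 14.1% of all genes. From set 2 to set 3, 14 (26.4%) were higher and 13 (24.5%) lower, against 21.6% and 9.36%. The share lower in set 2 than in set 1 and the share higher in set 3 than in set 2 thus lay near those of all genes. In theca cells, 10 of 50 (20%) were higher and 8 (16%) lower in set 2 than in set 1, against 6.57% and 21.9% of all genes. From set 1 to set 3, 10 of 49 (20.4%) were higher and 9 (18.4%) lower, against 8.37% and 16.8%, and from set 2 to set 3, 14 of 49 (28.6%) were higher and 10 (20.4%) lower, against 19.3% and 10.6%.

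Of the 9 cholesterol synthesis genes, 7 were at least 2-fold higher in GCs of set 3 than of set 1, and none was lower, where 9.75% of all genes were higher and 14.1% lower. *Sqle*, which makes squalene epoxide, stood at 0.370 in set 1 and 1.39 in set 3, and *Insig1*, the feedback sensor of sterols, at 0.415 and 1.45. In theca cells 5 of 9 were higher and none lower, against 8.37% and 16.8% of all genes, with *Sqle* at 0.928 in set 1 and 2.95 in set 3. Of 11 genes of cholesterol uptake, storage and efflux, 3 (27.3%) were higher and 2 (18.2%) lower in GCs of set 3 than of set 1, against the same 9.75% and 14.1% of all genes. *Lrp8*, a lipoprotein receptor, stood at 7.76 times its set 1 level (6.92 to 8.72), while *Soat1*, which esterifies cholesterol for storage, stood at 0.351 times and *Nceh1* at 0.292 times.

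Of 6 genes of mitochondrial cholesterol supply other than *Star*, 3 were at least 2-fold higher in GCs of set 3 than of set 2, *Stard3*, *Stard4* and *Stard5*, where 21.6% of all genes were. From set 1 to set 3, 1 of the 6 was higher, *Stard5*, and none was lower, where 9.75% and 14.1% of all genes were. *Stard3*, a cholesterol carrier of late endosomes, stood at 0.168, 0.0806 and 0.2002 in GCs of sets 1, 2 and 3. *Tspo* stood at 0.912, 0.655 and 1.06 and *Stard4* at 0.220, 0.125 and 0.382 in the same sets. *Stard5* was low in sets 1 and 2, at 0.0306 and 0.0285, and stood at 0.243 in set 3, 7.93 times the set 1 level. In theca cells the ratio of set 3 to set 1 was 11.8 for *Stard5*.

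Of 13 other steroid enzymes and their partners tested in GCs, 1 was at least 2-fold higher in set 3 than in set 1, *Por*, and 5 were lower, *Cyp19a1*, *Hsd17b1*, *Cyp17a1*, *Cyb5a* and *Akr1cl*, where 9.75% of all genes were higher and 14.1% lower. From set 2 to set 3, *Akr1c18* was higher and 4 were lower, *Cyp19a1*, *Hsd17b1*, *Cyp17a1* and *Cyb5a*, where 21.6% and 9.36% of all genes were. *Cyp17a1* stood at 0.407, 0.357 and 0.0741 in GCs of sets 1, 2 and 3. This is near the 0.330, 0.347 and 0.0945 of endothelial cells and the 0.373, 0.256 and 0.0892 of stroma. The gate rules also sent cells with *Cyp17a1* of at least 2.5 to the theca gate. *Akr1cl* was detected in 97.3%, 92.9% and 90.8% of all cells of the sets. The part of free RNA in these counts was not tested. In theca cells, 2 of 12 were higher in set 3 than in set 1, *Hsd17b7* and *Por*, and 4 were lower, *Cyp19a1*, *Hsd17b1*, *Hsd3b7* and *Akr1cl*, where 8.37% and 16.8% of all genes were. In GCs, *Cyp19a1*, which makes estradiol, stood at 2.41, 5.58 and 0.0905, and *Hsd17b1*, which acts beside it, at 9.15, 6.35 and 1.12. *Por*, the electron donor of microsomal P450 enzymes, stood at 0.299, 0.900 and 0.607. *Akr1c18*, which breaks progesterone down, stood at 0.104, 0.0526 and 0.171 in GCs, and its set 3 level was 3.24 times that of set 2 (2.71 to 3.90). In theca cells it had 10, 3 and 21 UMIs in sets 1, 2 and 3.

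Of the 14 regulators, 4 were at least 2-fold higher in GCs of set 2 than of set 1, *Crem*, *Nr4a1*, *Cebpb* and *Pgr*, and 3 were lower, *Nr0b1*, *Creb1* and *Foxl2*, where 6.99% of all genes were higher and 22.3% lower. In GCs of sets 1, 2 and 3, *Crem* stood at 0.148, 4.61 and 0.305, *Nr4a1* at 0.881, 5.89 and 0.629, *Cebpb* at 2.98, 17.03 and 7.42, and *Pgr* at 0.0141, 1.03 and 0.136. *Nr5a2*, which encodes LRH-1, stood at 9.69, 10.4 and 2.49, and *Nr0b1*, which encodes the repressor DAX-1, at 0.259, 0.0639 and 0.0190. *Creb1*, a factor activated through cAMP, stood at 0.580, 0.225 and 0.405, and *Foxl2*, which maintains granulosa identity, at 2.79, 0.836 and 0.892. *Lhcgr* stood at 1.19, 0.816 and 0.300. In theca cells, 6 of 13 regulators were at least 2-fold higher in set 2 than in set 1, *Nr5a2*, *Nr4a1*, *Cebpb*, *Crem*, *Fshr* and *Pgr*. There 3 were lower, *Nr5a1*, *Gata4* and *Foxl2*, where 6.57% of all genes were higher and 21.9% lower. Theca *Fshr* stood at only 0.0360 in set 1 and 0.0878 in set 2, under the 0.0564 and 0.114 of endothelial cells. *Fshr* and *Nr5a2* are also among the granulosa markers, whose theca sum was 20.95 in set 1 and 32.8 in set 2. The part of RNA from GCs in the theca ratios of *Fshr* and *Nr5a2* was not tested. *Nr5a1*, which encodes SF-1, stood in theca cells at 1.78 in set 1, 0.689 in set 2 and 0.662 in set 3. *Crem*, *Nr4a1*, *Cebpb* and *Pgr* thus had their highest GC level in the same set as *Fdx1* and *Scarb1*, while *Star* was highest in set 3.

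**Figure D5:**
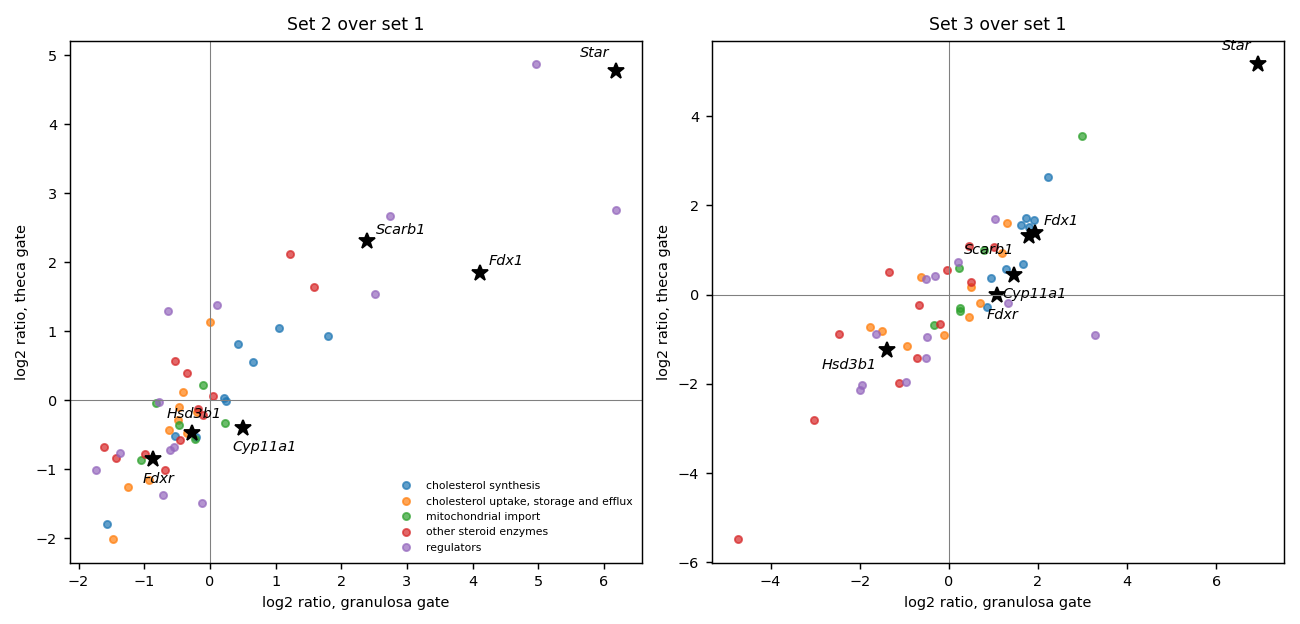
Log2 ratio of set 2 to set 1 (left) and of set 3 to set 1 (right) in the granulosa gate (x axis) against the theca gate (y axis), with stars for the 6 genes and dots for the pathway genes with at least 50 summed UMIs in both gates, coloured by group. *Star* lies at 6.19 and 4.76 on the left and 6.94 and 5.16 on the right, its x values being ratios of measured levels over a set 1 GC level read as background, and *Hsd3b1* lies below 0 on both axes of both panels.

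Across the 21 groups of 7 gates and 3 barcode sets, the genes whose log2 level ran most like each member were named by Pearson's r, as a description over groups that share libraries and cells. *Star* ran most like *Mrap* (r = 0.95), *Odc1* (0.94) and *Abhd2* (0.91), and *Cyp11a1* like *Tecr* (0.97), *Fdxr* (0.95) and *Sc5d* (0.95). *Hsd3b1* ran like *Gstm7* (0.95), *Mgarp* (0.94) and *Lhcgr* (0.93), and *Fdx1* like *Hspe1* (0.92) and *Hao2* (0.91). *Fdxr* ran like *Me1* (0.97), *Prlr* (0.97) and *Idh1* (0.96), and *Scarb1* like *Acly* (0.91), *Slc23a2* (0.89) and *Elovl5* (0.89). *Mgarp*, *Hao2* and *Prlr* are in the sum that helped to set the interstitial, luteal-marker and stroma gates, so their r values are partly built in. Among the members themselves, the closest pair was *Cyp11a1* and *Fdxr* (0.95) and the least alike *Star* and *Hsd3b1* (0.49).

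Dissociation can switch on stress genes, and their levels were read beside these results. *Fos* stood at 19.4, 17.2 and 18.2 over all cells of sets 1, 2 and 3, and *Jun* at 19.9, 20.1 and 21.3. *Junb* stood at 11.6, 21.02 and 10.4, highest in set 2 as *Fdx1* was. The sum of 6 such genes was 36.6, 65.9 and 51.1 in GCs, 42.1, 59.5 and 27.2 in theca cells and 54.7, 71.8 and 37.6 in interstitial cells. In luteal-marker cells this sum was 43.0, 41.8 and 37.8, not highest in set 2. Its part in the differences between sets was not tested.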

How the data were processed

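scRNA-seq of mouse ovary was done on the 10x Genomics platform. The values deposited by the authors are natural logs of 1 + x, where x is a gene's UMI number scaled to a cell total of 10000, and the submitters' processing notes name mm10, Cell Ranger and Seurat without versions. Filters on cells and genes are not given in the sources used here. UMI counts were worked back from the table, and 100% of its 80167176 values above 0 lay within 0.01 of a whole UMI. Cells held 500 to 133658 UMIs, with a median of 6347.5, so the absence of a gene at a level of 1 from a single cell carries little information.

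Gates were set by thresholds chosen after the cells had been looked at, and the 6 genes, the gates and the pathway list were chosen with earlier results of these data known. Sums over marker lists had to reach 15 UMIs per 10000 for the interstitial gate and 10 for the stromal, endothelial and myeloid gates, and GCs needed *Inha* and *Serpine2* values of at least 1.5 with a stromal sum under 10. Luteal-marker cells needed *Sfrp4* of at least 1.0, a *Ptgfr* UMI, *Serpine2* under 1.5 and an interstitial sum of at least 10. Stromal cells also needed an interstitial sum under 10. Where a cell met several gates, theca came first, then endothelial, myeloid, luteal-marker, granulosa, interstitial and stroma. *Akr1cl* was left out of the interstitial markers because it was detected in 97.3%, 92.9% and 90.8% of the cells of the 3 sets. Doublets were not called, and an alternative left out cells of more than 1 gate and the 5% of cells with most UMIs. Each set was clustered without the 6 genes (2000 variable genes, 30 principal components, 15 neighbours, Louvain).

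Levels are means over cells. The intervals of ratios are exact conditional intervals of the summed UMIs, and those of shares are exact Clopper-Pearson intervals. A gene was called different when its level was at least 2-fold apart. Shares were taken after thinning each cell to 3000 UMIs, leaving out shallower cells. Named genes were the 6 members, the pathway and marker genes, and for each member the 3 genes with the highest r of log2(level + 0.05) among 9976 genes that reached a level of 0.2 in at least 1 group of at least 20 cells. The ratio and its interval were checked on simulated counts. Clustering used python-igraph 0.11.9 and scikit-learn 1.9.0, the intervals scipy 1.17.1, the arrays numpy 2.4.6 and the plots matplotlib 3.10.9, under Python 3.11.15. The values of some listed genes are not reported here.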

Additional observations from a re-analysis of the deposited data

Results flagged for a closer look

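*Cyp11a1* was flagged because its ratio between barcode sets 2 and 1 went in opposite directions in 2 gates. It was 1.41 in GCs (1.38 to 1.45) and 0.759 in theca cells (0.749 to 0.769). The median log2 ratio over all genes compared was -0.48 in GCs and -0.46 in theca cells, and *Cyp11a1* stood at 0.50 and -0.40 on this scale. Relative to these medians the theca ratio was not lower, and the opposite directions are those of the unadjusted levels. The difference between the gates was not tested, since each set has 1 library at most and cells are not replicates.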

How the results depend on the processing

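The counts of members past 2-fold were recomputed with summed UMIs, mean log values, cells of at least 2000 UMIs, without cells of more than 1 gate and the deepest cells, totals without the 50 most abundant genes, *Cyp17a1* thresholds of 2.0 and 3.0, classes from clusters, and the mean endothelial and myeloid level of the set taken off. They stayed within 1.5 times, with these exceptions. In GCs, sets 2 and 1 were apart for 5 members with that level taken off, against 3, which counts *Scarb1* with a set 1 level of 0 and no ratio. In theca cells, sets 3 and 2 were apart for 1 member with summed UMIs, cells of at least 2000 UMIs, totals without the 50 most abundant genes, clusters and the level taken off, and for 2 with mean log values, against 0. No ratio past 2-fold turned its direction. The 4 *Scarb1* ratios over set 1 GCs gave no value with the level taken off, since endothelial cells, in which this receptor is known, exceeded GCs. Without the filter of 50 UMIs, the percent of all genes past 2-fold ranged from 11.6 to 33.2, against 6.57 to 22.3. The gates and sets of few cells, such as 60 interstitial cells of set 2, limit the precision. No paired analysis was possible because each group has 1 library.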
